A study of Mus musculus with 7 samples.

Results

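Ventricular cardiomyocytes (CMs), the contracting muscle cells of the left and right ventricle (LV and RV), made up 16580 of the 52881 cells in the wild-type tables of this mouse heart series. They are the cells that the authors annotated as ventricular CMs in their final labels, named markFinal for CD1 and markFinalGeneThresh for C57BL/6. Cells marked for exclusion were left out, and no ventricular CM carried that mark. CD1 mice gave 11749 of them and C57BL/6 mice 4831. Hearts were split into LA, RA, LV and RV (left and right atrium and ventricle), and the chambers of several hearts were combined into 1 sample for each stage and zone. The septum between the ventricles and the atrioventricular canal went with the LV. Each sample was stained with its own MULTI-seq barcode, a DNA tag anchored in the cell membrane by a lipid, before the samples were pooled for droplet single cell RNA-seq.

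The mice were of wild-type strains, and the labels name no treatment. CD1 mice, an outbred stock, were profiled in 3 experiments, one of E9.5 to E17.5 and P0 to P3, one of E18 and P1, and one of P2 to P9. C57BL/6 mice, an inbred strain, were profiled in 2 experiments, one of E10.5 to E18.5 and P1 to P4 and one of P5 to P9. The comparisons rest on CD1 from E9.5 to P3, with 9326 ventricular CMs in 26 LV and RV samples, and on C57BL/6 from E10.5 to P4, with 4771 in 26. The median ventricular CM had 17330.5 UMIs (unique molecules counted per cell) and 3908.5 detected genes in the first and 19149 UMIs and 3922 genes in the second. Of the distinct cell barcodes of ventricular CMs, 11 of 11738 in CD1 and 0 of 4831 in C57BL/6 occurred in more than 1 well of the droplet chip, and 13 were shared by the strains.

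Ventricular CMs are told from atrial CMs by Myl2, the regulatory light chain of ventricular myosin, and Myh7, the slow myosin heavy chain that predominates in the fetal mouse ventricle. The ventricle pumps before its chambers are complete, grows by division of its CMs until about birth, and then grows mainly as these cells enlarge. Around birth the myocardium is known to move from glucose and lactate towards fatty acids as fuel, which are burned in mitochondria. Mitochondria carry their own small genome, which encodes subunits of the respiratory chain and of ATP synthase, and its transcripts are polyadenylated and so are counted with the others.

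The tables hold values per cell and no gene values, so Myl2 and Myh7 could not be read here and the label was checked against the dissection instead. Of the CD1 ventricular CMs, 98.1% came from LV or RV samples, as did 98.8% of those of C57BL/6. The LA and RA held the others, 128 and 96 in CD1 and 9 and 47 in C57BL/6, which are described at the end.

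The mitochondrial share of UMIs rose almost without a break as the CD1 ventricle developed. GENCODE vM21, an annotation of the mouse genome, lists 37 mitochondrial genes, of which 13 encode proteins, and 13 was also the most that any ventricular CM had detected, in both strains. In CD1 LV samples the median ventricular CM had 5.31% of its UMIs on mitochondrial genes at E9.5, 7.51% at E10.5, 9.31% at E11.5, 10.9% at E12.5, 10.1% at E13.5, 10.2% at E14.5, 11.8% at E15.5, 12.9% at E16.5 and 14.7% at E17.5. After birth it had 20.2% at P0, 21.0% at P1 and 22.8% at P3. RV samples ran from 4.94% at E9.5 through 6.69%, 9.16%, 9.81%, 10.4%, 11.9%, 14.3% and 15.4% to 16.7% at E17.5 and 19.3% at P0. The lowest values thus stood at E9.5 in both ventricles and the highest after birth, with no overlap between the E9.5 to E11.5 samples and those from E15.5 on.

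**Figure D1:**
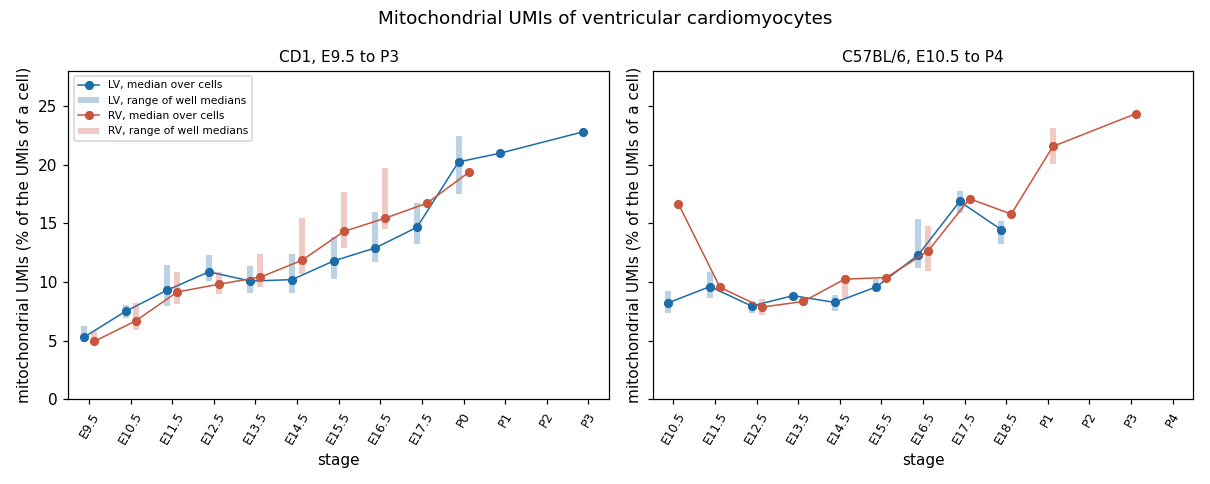
Median share of UMIs on mitochondrial genes (y axis, % of the UMIs of a cell) in ventricular CMs by stage (x axis), for LV in blue and RV in red, with samples of at least 10 cells. Points are medians over the cells of 1 sample and pale bars span the medians of at least 3 droplet wells. The plotted CD1 samples, all of the E9.5 to P3 experiment, climbed from about 5% at E9.5 to between 19.3% and 22.8% after birth, and the C57BL/6 RV at E10.5 stood apart at 16.7%.

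The droplet wells repeat the capture of the same pooled cells. In CD1 they were loaded with different numbers of cells, so their spread mixes loading with technical error. The CD1 LV at E9.5 had a mean over wells of 5.65% ± 0.589 (SD, n = 5 wells), at E13.5 10.6% ± 0.926 (n = 5) and at P0 20.4% ± 2.22 (n = 4). Across 18 CD1 samples with at least 3 wells of 10 cells, the median SD was 1.17 points, against a range of well means from 5.25% to 20.4%. Each stage and zone was 1 sample of pooled hearts, so the p-values below measure the order of stages against the spread between them and not the spread between litters.

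A stage was given the mean of its LV and RV medians, where each had at least 10 ventricular CMs, and its place in the order of the 20 stages of the series. In CD1 this value rose with stage from 5.12% at E9.5 to 19.8% at P0 (Spearman's rho = 0.99, permutation p = 1e-05, the smallest that 100000 resamples can give, adjusted p = 3.33e-05 over 10 trends, n = 10 stages). Pearson's r was 0.99 (permutation p = 1e-05, adjusted 3.33e-05), and 0.98 without the 2 stages farthest from the middle of the order (exact permutation p = 9.92e-05, n = 8). Within LV samples alone, which reach P3, rho was 0.98 over 12 stages (permutation, adjusted p = 3.33e-05), and within RV samples alone it was 1 over 10 (permutation, adjusted p = 5e-05).

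C57BL/6 ventricular CMs held a level near 8 to 10% for longer. Their LV medians were 8.24% at E10.5, 9.61% at E11.5, 7.96% at E12.5, 8.84% at E13.5, 8.26% at E14.5, 9.59% at E15.5, 12.3% at E16.5, 16.9% at E17.5 and 14.47% at E18.5. RV medians were 16.7% at E10.5, 9.55% at E11.5, 7.86% at E12.5, 8.34% at E13.5, 10.2% at E14.5, 10.4% at E15.5, 12.6% at E16.5, 17.1% at E17.5, 15.8% at E18.5, 21.6% at P1 and 24.3% at P3. The RV at E10.5 was the exception among the early samples, and all samples from E16.5 on lay above all other early samples.

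The rise in C57BL/6 did not pass the test over the 9 stages with both ventricles (rho = 0.63, exact permutation p = 0.076, adjusted p = 0.0845). Pearson's r was 0.65 (exact permutation p = 0.0621, adjusted 0.0776) and 0.81 without the 2 stages farthest from the middle (exact permutation p = 0.0123, n = 7). The call depended on the setting. Without E10.5 rho was 0.83 (exact permutation, adjusted p = 0.0278, n = 8). LV samples alone gave 0.77 (exact permutation, adjusted p = 0.0356, n = 9) and RV samples alone 0.70 (permutation, adjusted p = 0.0215, n = 11). A stricter cell filter, which left out cells under 4000 UMIs or over 20% mitochondrial, gave 0.73 (exact permutation, adjusted p = 0.0389, n = 9). With the cells of both ventricles pooled, which lets P1 and P3 enter, rho was 0.85 (permutation, adjusted p = 0.00227, n = 11). The cells that enter at P1 and P3 were nearly all from the RV (104 and 23, against 3 and 2 from the LV).

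The E10.5 RV sample of C57BL/6 held 43 ventricular CMs. Of these, 25.6% lay in the sub-clusters numbered 9 and 12, against 4.61% of the 152 in the LV of that stage. Cells of these sub-clusters had few UMIs and a high mitochondrial share in general, with medians of 6433 UMIs and 25.04% in sub-cluster 9 and 9771 UMIs and 25.3% in sub-cluster 12. Their counterpart by these values in CD1 was sub-cluster 10, with 6086 UMIs and 22.2%. With these sub-clusters left out, the C57BL/6 trend was still not called (rho = 0.63, exact permutation, adjusted p = 0.095, n = 9) and the CD1 trend kept its rho of 0.99. Their part in the RV value was not tested further.

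The rise in the mitochondrial share had an early and a late stretch that differed in what was counted. From E9.5 to E14.5 in CD1, the stage value of mitochondrial UMIs per cell stayed between 1663 and 1967, while the median of all UMIs fell from 33905 to 13588 in LV samples and from 31768 to 15844.5 in RV samples. Non-mitochondrial UMIs fell from 31977.5 to 12129 in the LV over the same stages. From E14.5 to P0, mitochondrial UMIs rose in the stage value from 1663 to 2970, and in the LV they reached 3603 at P3. Non-mitochondrial UMIs in the LV were 11322 at P0 and 12672 at P3, close to their E14.5 value. In LV samples mitochondrial UMIs were 1794.5 at E9.5, 2039.5 at E11.5 and 1454 at E14.5, and in RV samples 1747, 1894 and 1872. So the share first rose without a lasting rise in the stage value of mitochondrial UMIs, and later with one. These counts were set out after the shares had been seen and carry no test.

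C57BL/6 also had more mitochondrial UMIs per cell from E17.5 on. Mitochondrial UMIs were between 1567 and 2126 per cell in the stage values from E10.5 to E15.5, 2061 at E16.5, 3732 at E17.5 and 3429 at E18.5. Non-mitochondrial UMIs of the LV were 21734 at E10.5, 14413.5 at E15.5 and 17784 at E18.5. Those of the RV were 11398 at E10.5, 11792.5 at E11.5, 21126.5 at E12.5, 18502 at E13.5, 18329 at E14.5, 12454.5 at E15.5 and 20116 at E18.5. In the RV they were thus low at E10.5 and E11.5, higher from E12.5 to E14.5 and low again at E15.5.

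**Figure D2:**
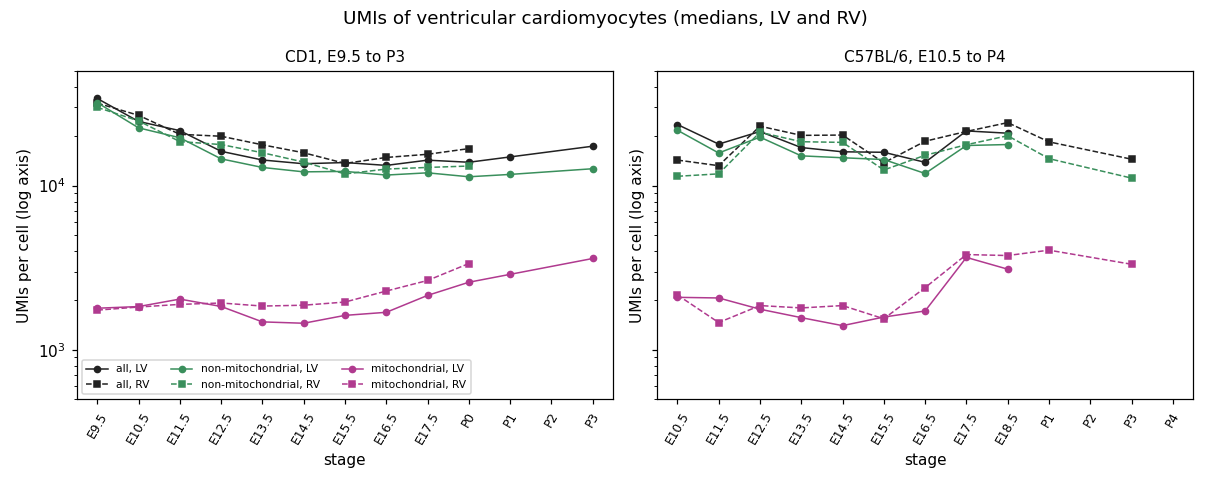
Median UMIs per ventricular CM (y axis, log scale) by stage (x axis) for all UMIs in black, non-mitochondrial UMIs in green and mitochondrial UMIs in purple, with LV as circles and solid lines and RV as squares and dashed lines. In CD1 the black and green lines descend until about E14.5 while the purple lines stay between 1454 and 2039.5, and afterwards the purple lines climb to 3603 in the LV at P3.

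Total UMIs per ventricular CM fell with stage in CD1 and showed no single direction in C57BL/6. The CD1 stage value fell from 32836.5 at E9.5 to 13735.5 at E15.5 and stood at 15336 at P0, given here as the mean of the LV and RV medians (trend of the log2 value with stage, rho = -0.79, permutation p = 0.00872, adjusted p = 0.0174, n = 10). By Pearson's measure r was -0.80 (p = 0.00506 by permutation, 0.0101 adjusted) and -0.89 without the 2 farthest stages. The call was lost without E9.5 or E12.5, and in LV samples alone, where rho was -0.49 over 12 stages (permutation, adjusted p = 0.138). In C57BL/6 rho was 0.27 (exact permutation p = 0.493, adjusted 0.493, n = 9), and r was 0.31 (p = 0.41 by exact permutation, 0.41 adjusted) and 0.063 without the 2 farthest stages. UMI counts also varied between wells of 1 sample, with a median SD of 2068 UMIs in CD1 and 3794 in C57BL/6. The fall in CD1 was not particular to ventricular CMs. Cells of the same samples that were neither CMs nor blood cells went from 19778 UMIs at E10.5 to 7941 at P0. Ventricular CMs went from 25685.5 to 15336 over these stages, all given as means of the LV and RV medians. The trend of the other cells was not tested.

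Ribosomal proteins, which build the protein-making machinery, took a falling share of the UMIs. In CD1 LV samples the median share of UMIs on genes named Rps or Rpl was 16.51% at E9.5, 15.2% at E10.5, 14.7% at E11.5, 13.8% at E12.5, 13.9% at E13.5, 13.8% at E14.5, 12.7% at E15.5, 11.6% at E16.5, 10.6% at E17.5, 8.44% at P0, 7.70% at P1 and 6.47% at P3. In RV samples it went from 17.0% at E9.5 to 9.10% at E17.5 and 8.16% at P0. Every CD1 stage value was below that of the stage before it, from 16.7% at E9.5 to 8.30% at P0 (rho = -1, permutation p = 1e-05, the smallest possible, adjusted p = 3.33e-05, n = 10). Pearson's r was -0.99 (p = 1e-05 by permutation, 3.33e-05 adjusted), and -0.99 without the 2 farthest stages.

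A rising mitochondrial share lowers every other share of the same cell, so the ribosomal-protein share was also taken over the non-mitochondrial UMIs. It then fell from 17.7% at E9.5 to 10.2% at P0 in CD1 (rho = -0.99, permutation, adjusted p = 3.33e-05, n = 10). In the LV at P3 it was 8.63%.

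C57BL/6 ventricular CMs went from an LV median of 15.1% at E10.5 and 15.8% at E14.5 to 10.8% at E18.5, and their RV median was 12.1% at E10.5, 15.4% at E12.5, 10.0% at E18.5, 8.95% at P1 and 7.40% at P3. The trend missed the threshold by its rank measure (rho = -0.70, exact permutation p = 0.0433, adjusted p = 0.0541, n = 9) and passed by Pearson's r (-0.79, exact permutation p = 0.0119, adjusted 0.0198; -0.84 without the 2 farthest stages). It passed without E10.5 (rho = -0.81, exact permutation, adjusted p = 0.0311, n = 8). It also passed in LV samples alone (rho = -0.73, exact permutation, adjusted p = 0.0445, n = 9) and in RV samples alone (rho = -0.83, permutation, adjusted p = 0.00457, n = 11).

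**Figure D3:**
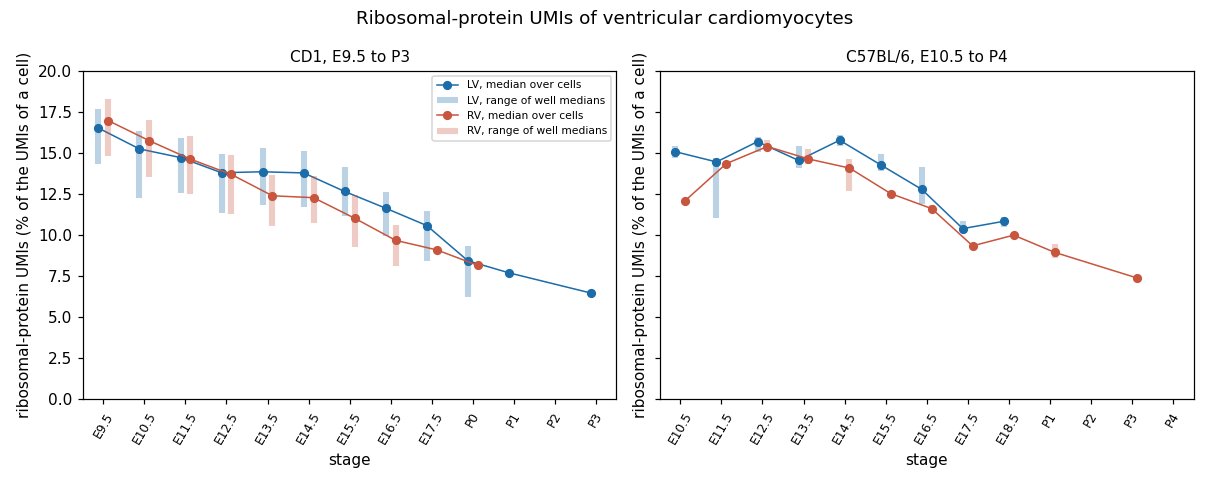
Median share of UMIs on ribosomal-protein genes (y axis, % of the UMIs of a cell) in ventricular CMs by stage (x axis), for LV in blue and RV in red, in samples of at least 10 cells. Points are medians over cells and pale bars span the medians of at least 3 droplet wells. CD1 fell from about 17% at E9.5 to 6.47% in the LV at P3, and the C57BL/6 RV fell to 7.40% at P3.

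The number of genes detected was compared among cells of 10000 to 20000 UMIs, since a cell with more UMIs shows more genes and the tables do not allow counts to be thinned. In CD1 the median ventricular CM of this range had 3928 genes in the LV and 3790 in the RV at E10.5, 3627 and 3704 at E13.5, 3204 and 3041 at E17.5 and 2886 and 3015 at P0. The LV value was 3175 at P1 and 3095 at P3. The stage value fell at every step from 3859 at E10.5 to 2950.5 at P0 (rho = -1, exact permutation p = 5.51e-06, adjusted p = 3.33e-05, n = 9). Pearson's r was -0.99 (p = 2.76e-06 by exact permutation, 2.76e-05 adjusted), and -0.99 without the 2 farthest stages. The median UMI count within the range was 16743 in the LV at E10.5 and 14649.5 at P0, so the cells compared were not of quite equal depth. In the lower range of 5000 to 10000 UMIs, with only 7 stages, the fall was no longer called (rho = -0.39, exact permutation, adjusted p = 0.445).

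In C57BL/6 the stage value fell from 3547.5 genes at E10.5 and 3662 at E12.5 to 3308 at E18.5 (rho = -0.86, exact permutation p = 0.0238, adjusted p = 0.034, n = 7). Pearson's r was -0.82 (p = 0.019 by exact permutation, 0.0272 adjusted) and -0.99 without the 2 farthest stages. This call was lost in 8 of 11 settings that left out 1 stage or well, with rho from -0.94 to -0.66. RV samples reached 3079 at P1 and 2852 at P3. When the range was set on non-mitochondrial UMIs, rho was -1 in CD1 and -0.93 in C57BL/6 (exact permutation, adjusted p = 3.33e-05 and 0.0135, n = 9 and 7).

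The ventricular CMs were then set against the other cells of the same LV and RV samples, that is, all cells that were neither CMs nor blood cells, called non-myocytes here. In CD1 they had a higher mitochondrial share at 9 of 9 stages, by 7.06 points on average (SD 4.19, means 12.3% and 5.24%; exact sign-flip p = 0.00391, adjusted p = 0.00893 over 16 comparisons). They had a lower ribosomal-protein share at 9 of 9 stages, with a difference of -6.25 points (SD 2.67, means 12.3% and 18.55%; exact sign-flip, adjusted p = 0.00893). Their median UMI count was 1.68-fold higher (log2 difference 0.74, SD 0.17, 9 of 9 stages; exact sign-flip, adjusted p = 0.00893). At 10000 to 20000 UMIs they showed fewer genes, with a difference of -353 and means of 3466 and 3819 (SD 191, 9 of 9 stages; exact sign-flip, adjusted p = 0.00893).

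C57BL/6 gave the same directions. The mitochondrial share of ventricular CMs was 6.52 points higher (SD 3.60, means 11.4% and 4.85%), the difference in ribosomal-protein share -6.64 points (SD 2.47, means 13.2% and 19.9%) and the median UMI count 1.93-fold higher (log2 difference 0.95, SD 0.26), each at 9 of 9 stages (exact sign-flip, adjusted p = 0.00893 for each). The difference in detected genes, -213 with the same sign at 6 of 6 stages (SD 110), did not pass after adjustment (exact sign-flip p = 0.0312, adjusted 0.05).

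Whether the gap between ventricular CMs and non-myocytes widened with stage was tested after it had been seen, and the answer differed between measures. Non-myocytes of CD1 had a mitochondrial share of 5.12% at E10.5 and 4.81% at P0. Endothelial cells, a part of the non-myocytes, stood nearer to ventricular CMs early. In CD1 they had 6.67% against 7.10% at E10.5, 9.34% against 10.3% at E13.5 and 5.06% against 19.8% at P0. In C57BL/6 they had 7.87% against 7.91% at E12.5. The difference from all non-myocytes grew in CD1 from 1.98 points at E10.5 to 15.0 points at P0 (rho = 0.98, exact permutation p = 4.96e-05, adjusted p = 0.000298 over 12 relations, n = 9). That of the ribosomal-protein share went from -2.64 to -8.999 points (rho of the signed difference = -0.98, exact permutation, adjusted p = 0.000298). In C57BL/6 the mitochondrial gap was 6.18 points at E10.5 and 11.49 points at E18.5 (rho = 0.73, exact permutation p = 0.0311, adjusted p = 0.0622, n = 9), and the ribosomal-protein difference was -5.53 and -10.8 points (rho of the signed difference = -0.93, exact permutation, adjusted p = 0.003). The log2 difference in UMIs went from 0.64 to 1.08 in C57BL/6 (rho = 0.88, exact permutation, adjusted p = 0.00923, n = 9), and in CD1 its change was not called (rho = 0.60, exact permutation, adjusted p = 0.116, n = 9). The difference in detected genes was not called either, with a rho of -0.68 in CD1 and -0.83 in C57BL/6 (exact permutation, adjusted p = 0.0755 and 0.0778, n = 9 and 6).

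**Figure D4:**
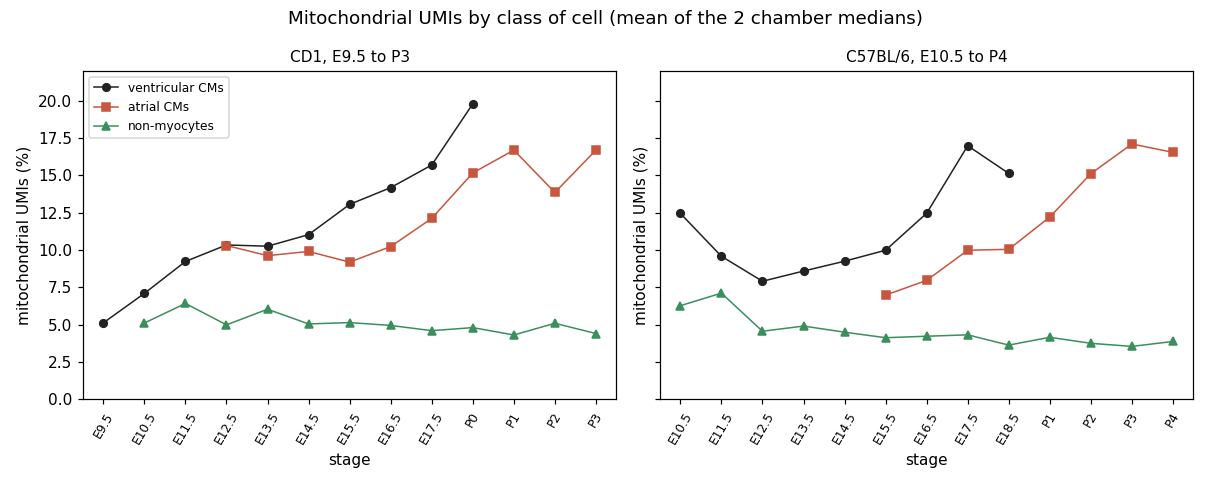
Mitochondrial share of UMIs (y axis, %) by stage (x axis) in ventricular CMs of LV and RV (black circles), atrial CMs of LA and RA (red squares) and non-myocytes of LV and RV (green triangles), each point being the mean of the medians of the 2 chambers where both had at least 10 cells. In CD1 the ventricular CMs rose from 5.12% at E9.5 while the non-myocytes stayed between 4.60% and 6.42% from E10.5 to P0, met the atrial CMs at E12.5 and stood above both from E13.5 to P0.

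Atrial CMs, the muscle cells of the LA and RA, were compared at the same stages. In CD1 ventricular and atrial CMs had mitochondrial shares of 10.3% and 10.3% at E12.5, 13.05% and 9.19% at E15.5, 15.7% and 12.1% at E17.5 and 19.8% and 15.2% at P0. Ventricular CMs were higher at 7 of 7 stages, by 2.54 points (SD 1.87; exact sign-flip p = 0.0156, adjusted p = 0.0312). The difference grew from 0.0375 points at E12.5 to 4.63 points at P0 (rho = 0.89, exact permutation p = 0.0123, adjusted p = 0.0295, n = 7). This change was no longer called without E12.5, E13.5, E14.5 or P0, with a rho of 0.83 and adjusted p of 0.0802 to 0.0917 in exact permutation tests of 6 stages. The call of the difference itself was lost without any 1 of the 7 stages, with differences of 2.20 to 2.96 points. The 6 stages then left all differed in 1 direction. Their sign-flip p was thus the smallest possible and still did not pass after adjustment. The call was also lost at a minimum of 20 cells, under the stricter cell filter and without sub-cluster 10, with adjusted p of 0.05, 0.0556 and 0.05 in the exact sign-flip tests and differences of 2.54, 1.96 and 2.43 points.

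The ribosomal-protein share of ventricular and atrial CMs differed by 0.0390 points on average in CD1 (SD 0.563, higher in ventricular CMs at 5 of 7 stages; exact sign-flip p = 0.875, adjusted 0.875). Median UMI counts differed by -0.11 on the log2 scale (SD 0.15; exact sign-flip p = 0.109, adjusted 0.154). Ventricular CMs showed fewer genes at 10000 to 20000 UMIs at 6 of 7 stages, with a difference of -207 (SD 156), which did not pass (exact sign-flip p = 0.0312, adjusted 0.05). In C57BL/6 only 4 stages, E15.5 to E18.5, had enough of both atrial and ventricular CMs, so that no p below 0.125 was possible. There the mitochondrial share was 4.89 points higher in ventricular CMs at 4 of 4 stages (SD 1.65; exact sign-flip p = 0.125, adjusted 0.154). Their ribosomal-protein share was lower at 3 of 4 stages, with a difference of -1.63 points (SD 1.55; exact sign-flip p = 0.25, adjusted 0.267). Median UMI counts were lower at 4 of 4, by -0.26 in log2 (SD 0.27; exact sign-flip p = 0.125, adjusted 0.154). Detected genes were lower at 3 of 3, with a difference of -210 (SD 117; exact sign-flip p = 0.25, adjusted 0.267).

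No difference between LV and RV passed after adjustment over 10 comparisons. The one with the lowest p was the ribosomal-protein share in C57BL/6, which was higher in the LV at 8 of 9 stages, by 1.09 points (SD 0.961; exact sign-flip p = 0.00781, adjusted 0.0781). In CD1 it was higher in the LV at 8 of 10 stages, by 0.756 points (SD 0.936; exact sign-flip p = 0.0469, adjusted 0.117). The median UMI count was lower in the LV at 7 of 10 CD1 stages, with a mean LV minus RV difference of -0.13 on the log2 scale (SD 0.15; exact sign-flip p = 0.0273, adjusted 0.0911), and differed by 0.0050 in C57BL/6 (SD 0.38; exact sign-flip p = 0.973). The LV minus RV difference in mitochondrial share was -0.578 points in CD1 (SD 1.46, negative at 5 of 10 stages) and -1.39 points in C57BL/6 (SD 2.75, negative at 6 of 9; exact sign-flip, adjusted p = 0.338 and 0.141). The C57BL/6 mean rested largely on E10.5, where the difference was -8.43 points. It was -0.504 points without that stage and -0.859 points without the sub-clusters 9 and 12. The CD1 RV stood above the LV at each stage from E13.5 to E17.5, and below it at each stage from E9.5 to E12.5 and at P0. The LV minus RV difference was not shown to differ between the strains for any of the 5 measures (exact permutation, adjusted p from 0.455 to 0.979).

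The share of ventricular CMs among all cells of a ventricle fell steeply towards the first postnatal week. In CD1 they were 84.9% of the cells of the LV at E9.5 (exact 95% interval 81.8 to 87.6, 615 cells) and 90.2% of the RV (83.6 to 94.9, 123 cells). They were 81.2% and 87.6% at E13.5, 42.7% and 25.5% at E17.5, 58.8% and 43.4% at P0, 39.7% and 11.1% at P1, 14.55% and 3.57% at P2, and 25.4% at P3 in the LV, with 7 of 56 cells in the RV. The E17.5 samples thus stood below the P0 samples in both ventricles. Over the 10 stages with at least 10 ventricular CMs in each ventricle, the share fell with stage (rho = -0.90, permutation p = 0.00078, adjusted p = 0.00195). The corresponding r was -0.82 (p = 0.00258 by permutation, 0.00645 adjusted) and -0.80 without the 2 farthest stages. That minimum leaves out the samples of lowest share. Without it, rho was -0.95 over 13 stages and the mean of LV and RV was 18.97% at P3 (permutation, adjusted p = 2.5e-05).

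In C57BL/6 ventricular CMs were a smaller share of the cells than in CD1 in each ventricle at each stage from E10.5 to E17.5. The strains were profiled in separate experiments and their cell types come from differently named labels, so strain, experiment and label cannot be told apart. The C57BL/6 LV share was 39.6% at E10.5 (exact 95% interval 34.7 to 44.7, 384 cells), 45.6% at E13.5, 56.96% at E15.5, 18.8% at E17.5 and 49.1% at E18.5, and the RV share was 46.7% at E10.5 (36.3 to 57.4, 92 cells), 40.4% at E13.5, 15.8% at E15.5, 12.1% at E17.5, 21.4% at E18.5 and 20.9% at P1. The LV share was higher at 8 of 9 stages, by 14.2 points (SD 14.6; exact sign-flip p = 0.0195, adjusted 0.0911). The fall of the stage value with stage passed (rho = -0.77, exact permutation p = 0.0214, adjusted p = 0.034, n = 9), though r did not (-0.60, p = 0.0794 by exact permutation, 0.0882 adjusted; -0.72 without the 2 farthest stages). The call was lost in 10 of 13 settings that left out 1 stage or well, with rho from -0.90 to -0.48. It did not hold in the LV alone, where rho was 0.37 (exact permutation, adjusted p = 0.374, n = 9). With no minimum of ventricular CMs, rho was -0.91 over 13 stages and the mean share was 3.71% at P4 (permutation, adjusted p = 0.0001).

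**Figure D5:**
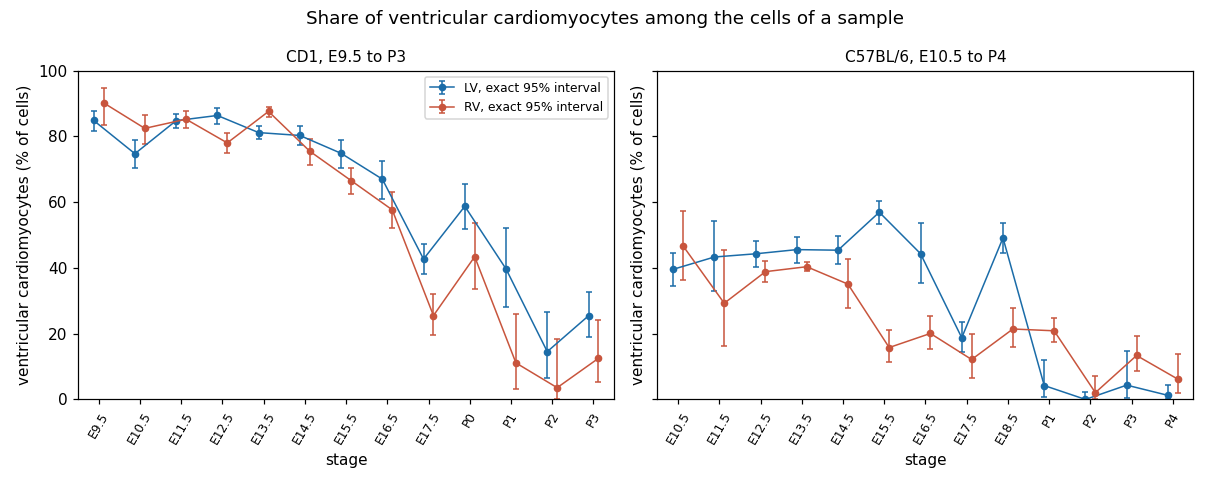
Ventricular CMs as a share of all cells in each LV (blue) and RV (red) sample (y axis, %) by stage (x axis), with exact 95% binomial intervals, which cover counting error only. CD1 ventricles started at over 80% at E9.5 and fell to 25.4% in the LV at P3, and C57BL/6 ventricles ended at 1.24% in the LV and 6.17% in the RV at P4.

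From P4 on few were captured. The CD1 experiment of P2 to P9 held 5 ventricular CMs among the 640 cells of its LV and RV samples from P4 on, or 0.781%, with up to 4.44% in a sample (the LV at P5, 2 of 45 cells). C57BL/6 had 7 among 242 at P4, with 6.17% in the RV, and 4 among 846, or 0.473%, from P5 to P9. The 7 at P4 had a median mitochondrial share of 25.8%. Single later cells were unlike them, with 2.11% in the C57BL/6 RV at P8 and 0.325% in the CD1 RV at P9. The P8 cell had 32.4% of its UMIs on ribosomal-protein genes. Whether these were ventricular CMs was not tested. The CD1 LV at P9 had 0 of 185 cells, which allows a share of up to 1.62%, and the C57BL/6 LV at P8 had 0 of 166, which allows up to 1.81%. The dissociated cells had passed a strainer before they entered droplets, and the study cautions that large neonatal CMs are captured less well. Fewer ventricular CMs in the tissue and fewer captured cannot be told apart here.

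The comparison of the last prenatal with the first postnatal stages could be made only in part, because few postnatal samples held 10 ventricular CMs. In CD1, P0 alone had both ventricles, and its mitochondrial share of 19.8% compared with 13.49% ± 1.96 (SD, n = 4) at E14.5 to E17.5 (exact permutation p = 0.4, adjusted 0.5, where 0.4 is the smallest p that 4 stages against 1 allow). No C57BL/6 stage after birth had both. With LV and RV cells pooled, a choice made after the cell numbers were known, CD1 ventricular CMs had 13.3% ± 1.85 (SD, n = 4) before birth and 21.4% ± 1.53 (n = 3, at P0, P1 and P3), a difference of 8.14 points (exact permutation p = 0.0571, the smallest possible, adjusted 0.19). C57BL/6 had 13.46% ± 3.17 (n = 4) and 22.9% ± 1.77 (n = 2, at P1 and P3), a difference of 9.40 points (exact permutation p = 0.133, the smallest possible, adjusted 0.19). In each strain every postnatal value lay above every prenatal one. The ribosomal-protein share went from 11.48% ± 1.33 to 7.52% ± 0.892 in CD1 and from 11.9% ± 1.75 to 8.17% ± 1.09 in C57BL/6 over the same stages, again without overlap and with the same p-values. Pooling mixed ventricle with birth. C57BL/6 cells were mostly LV at E15.5 (442 LV, 36 RV) and E18.5 (231 and 42). At P1 (3 and 104) and P3 (2 and 23) they were nearly all RV. CD1 cells were mostly LV at P1 (27 and 4) and P3 (43 and 7). Within C57BL/6 RV samples the mitochondrial share was at most 17.1% before birth, and 21.6% at P1 and 24.3% at P3.

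Postnatal ventricular CMs came near the upper bound of the mitochondrial share in the tables. The highest value of a ventricular CM was 29.98% in CD1 and 29.99% in C57BL/6. The share of ventricular CMs above 25% was 0.632% of 633 cells at E9.5 in CD1 (exact 95% interval 0.172 to 1.61), 4.31% of 255 at E17.5, 13.8% of 167 at P0 and 28% of 50 at P3 (16.2 to 42.5). In C57BL/6 it was 3.97% of 478 cells at E15.5, 8.06% of 273 at E18.5, 18.7% of 107 at P1 and 36% of 25 at P3 (17.97 to 57.5). Cells above the bound are not in the tables, so the postnatal medians and shares of cells describe the cells that remained below it.

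Values of a stage that CD1 shared between experiments differed between them, and experiment and the hearts used cannot be told apart there. At P1 the LV median was 21.0% mitochondrial in 27 ventricular CMs of the E9.5 to P3 experiment and 16.1% in 57 of the E18 and P1 experiment. Median UMI counts of these samples were 14953 and 24144, mitochondrial UMIs 2885 and 3860, and ribosomal-protein shares 7.70% and 8.82%. The E18 samples, with 1602 and 523 ventricular CMs in LV and RV, had mitochondrial shares of 10.6% and 11.3% and 23442 and 25193 UMIs, below and above the E17.5 samples of the other experiment. Experiment and stage cannot be told apart at E18. All CD1 experiments were then allowed into 1 trend. Only E18 was added, since no other stage of the other experiments had 10 ventricular CMs in each ventricle. With it the mitochondrial share still rose (rho = 0.90, permutation, adjusted p = 0.00157, n = 11), the ribosomal-protein share still fell (rho = -0.95, permutation, adjusted p = 0.0004) and the fall in UMIs was no longer called (rho = -0.55, permutation, adjusted p = 0.0922).

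The 2 strains were compared over the stages they share, E10.5 to E17.5. The stage profiles of the mitochondrial share had a rho of 0.48 (r = 0.54; exact permutation p = 0.243 and 0.162, adjusted 0.304 and 0.202, n = 8; r = 0.79 without the 2 stages farthest from the middle value, exact permutation p = 0.0528). Those of the ribosomal-protein share had a rho of 0.60 (r = 0.74; exact permutation p = 0.132 and 0.0312, adjusted 0.252 and 0.0556), and r was -0.0022 without the 2 farthest stages, so that it rests on those. The share of ventricular CMs gave a rho of 0.57 and an r of 0.95 (exact permutation p = 0.151 and 0.00561, adjusted 0.252 and 0.028), with an r of 0.32 without the 2 farthest stages. Detected genes had a rho of 0.83 (r = 0.86; exact permutation p = 0.0583 and 0.0333, adjusted 0.252 and 0.0556, n = 6; r = 0.98 without the 2 farthest), and UMI counts a rho of 0.40 (r = 0.10; exact permutation p = 0.327 and 0.819, n = 8; r = 0.80 without the 2 farthest). No profile passed by rho in the comparison of both strains.

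The deposited sub-clusters of ventricular CMs, 12 in CD1 and 14 in C57BL/6, differed in the stages that their cells came from. They were made from the expression of these cells, so their stages and values are given as a description, over the cells of all zones. E13.5, the stage with the most ventricular CMs, was the most frequent stage in 8 of the 12 CD1 sub-clusters, with 28.7% to 56.6% of their cells, and in 9 of the 14 C57BL/6 sub-clusters, with 51.2% to 77.8%. Others came largely from earlier or later stages. In CD1, 76.5% of the 839 cells of sub-cluster 8 came from E9.5, 61.4% of the 1219 of sub-cluster 2 from E11.5, 61.9% of the 2074 of sub-cluster 0 from E18, and only 8.47% of the 236 of sub-cluster 12 from before birth. Their median mitochondrial shares were 5.47%, 8.71%, 11.8% and 20.8%. In C57BL/6, 69.3% of the 283 cells of sub-cluster 7 came from E18.5 and 75.8% of the 124 of sub-cluster 13 from P1, with mitochondrial shares of 15.4% and 22.6%.

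Sub-clusters of mostly postnatal cells held a far larger share at the first postnatal stage sampled than at the last prenatal one. CD1 sub-cluster 12 held 0.794% of the ventricular CMs of LV and RV at E16.5, 6.27% at E17.5, 60.5% at P0, 83.9% at P1 and 72% at P3. In the E18 and P1 experiment it held 0.0471% of 2125 cells at E18 and 75% of 60 at P1. In the P2 to P9 experiment it held 0 of the 9 ventricular CMs of LV and RV at P2. The CD1 experiments share these sub-clusters, so the step in a second experiment is no independent repeat. In C57BL/6, sub-cluster 13 held 0.366% of 273 cells at E18.5, 87.9% of 107 at P1 and 72% of 25 at P3.

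Other sub-clusters shared their stages and differed in UMIs per cell. At E13.5 in CD1, where 2743 ventricular CMs were captured, the 9 sub-clusters with at least 50 cells had median UMI counts from 5702 in sub-cluster 10 to 20643.5 in sub-cluster 4. Sub-clusters 5 and 4, with 556 and 332 cells, had 13386.5 and 20643.5 UMIs, ribosomal-protein shares of 14.52% and 12.4% and mitochondrial shares of 9.43% and 9.07%. Doublet scores deposited by the authors were 0.241 and 0.497 in these. In C57BL/6 at E13.5, sub-cluster 2 had 30303.5 UMIs in 354 cells and sub-cluster 6 had 15275.5 in 302, with doublet scores of 0.344 and 0.240. Doublet scores thus moved with UMI counts, and their part in the sub-clusters was not tested. With the highest 10% of doublet scores left out, the mitochondrial and ribosomal-protein trends of CD1 were still called.

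Some sub-clusters leaned to 1 ventricle once the stages of their cells were taken into account. C57BL/6 sub-cluster 1 was 49.5% LV (exact 95% interval 45.3 to 53.8) where its stages would give 30.2%, and sub-cluster 6 was 6.20% LV (4.01 to 9.09) where they would give 21.4%. Sub-clusters 4 and 8 of C57BL/6 departed by -9.92 and 9.42 points. In CD1 sub-cluster 9 was 39.3% LV (34.1 to 44.8) against 53.7%, sub-cluster 10 was 47.9% (42.5 to 53.4) against 56.4% and sub-cluster 5 was 59.6% (56.5 to 62.7) against 51.2%. The departures of the other 9 CD1 sub-clusters ran from -3.56 to 5.40 points. Cells are not replicates, and these departures were not tested.

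Ventricular CMs in atrial samples of CD1 were common at E9.5 and again at P2. At E9.5 they were 43 of the 76 cells of the LA and 18 of the 73 of the RA, and in C57BL/6 at E10.5 they were 27 of the 91 cells of the RA. Their mitochondrial shares of 5.71% and 5.06% in CD1 lay beside the 5.31% and 4.94% of the LV and RV of that stage. Between E13.5 and P1 no atrial sample of either main experiment held more than 3 of them.

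They reappeared at P2 in CD1, in both experiments that cover this stage, with 26 of 161 cells in the LA of one and 27 of 289 in the LA and 41 of 635 in the RA of the other. Their median mitochondrial shares were 10.49%, 12.45% and 11.7%, against 20.8% in the 8 ventricular CMs of the LV of the first experiment and 15.0% in the 9 of LV and RV of the second. Ribosomal-protein shares were 13.4%, 11.7% and 10.9%, against 8.69% and 7.66% in those ventricular samples. None of these 26 and 68 cells lay in sub-cluster 12, which held 7 of the 9 ventricular CMs of LV and RV of the first experiment and 0 of the 9 of the second. The mitochondrial shares of the ventricular CMs of the P2 atria thus lay among those of prenatal LV and RV samples of the E9.5 to P3 experiment. These were, for instance, 10.9% in the LV at E12.5 and 12.9% at E16.5. For the P2 to P9 experiment this sets values of different experiments side by side. The source of these cells was not tested.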

How the data were processed

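CD1 and C57BL/6 hearts were profiled with a droplet 3′ assay after MULTI-seq labelling. Per the labels and the methods of the study, the authors aligned reads with Cell Ranger 3.1.0 to GRCm38.p4, assigned cells to samples with deMULTIplex, filtered cells with scater, removed doublets by scds score, clustered with Seurat and named ventricular clusters by Myl2. The UMI, gene, mitochondrial and ribosomal-protein counts per cell were deposited by the authors without normalization, the percent of mitochondrial and ribosomal-protein UMIs as they computed it, and the doublet score as scds gave it. The cell types, stages, zones and wells are those given in the deposited tables, and the strain is that of the table. In the deposited tables ventricular CMs had at least 2005 UMIs in CD1 and 2054 in C57BL/6 and at most 30.0% mitochondrial UMIs. Of the columns in both tables, 84 were not used. The tables of the Tbx18 and Wt1 experiments were not used here.

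The value of a sample was the median over at least 10 ventricular CMs, UMI counts being taken to log2, and that of a stage the mean of LV and RV. Trends were measured against the order of stages by Spearman's rho, which made the call, and by Pearson's r, with all permutations under 10 stages and 100000 resamples otherwise. Groups of stages were compared by exact permutation, with the smaller tail doubled, and matched stages by exact sign flips. Tests were two-sided with Benjamini-Hochberg adjustment within each family and a threshold of 0.05. Intervals of shares are exact (Clopper-Pearson, 95%) and, like the 3 counts that a count of 0 allows, cover counting error only. Samples of few cells give wide intervals and less certain medians, and medians of samples under 10 cells entered no test except where cells were pooled.

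Members, lists and tests were chosen with earlier results of these data known. The rule set for names was to name no gene except the markers, which have no values here. Alternatives were the mean in place of the median, minimums of 20 and 50 cells, at least 4000 UMIs and at most 20% mitochondrial UMIs, the highest 10% of doublet scores left out, single ventricles, other UMI ranges, 3 prenatal stages, endothelial cells in place of non-myocytes, all experiments of a strain together, and each stage and well left out. Chosen later were pooled ventricles, shares of non-mitochondrial UMIs and a range set on them, sub-clusters of few UMIs left out, no minimum for the share, and the change of differences with stage. A stage without both ventricles had no stage value, so that C57BL/6 was compared across birth only with the ventricles pooled. Exact tests were used under 10 values, where a limit of 8 had been planned. The tests were checked on simulated data. Computation was in Python 3.11.15 (scipy 1.17.1, pandas 2.3.3, numpy 2.4.6), with plots by matplotlib 3.10.9.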

Additional observations from a re-analysis of the deposited data

Results flagged for a closer look

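Ventricular CMs in LA and RA samples entered none of the tests, and 11 of these samples held a share above the limit that a count of 0 allows in them. Before birth these were, in the CD1 experiment of E9.5 to P3, the LA at E9.5 with 56.6% (43 of 76 cells), the RA at E9.5 with 24.7% (18 of 73), the LA at E10.5 with 5.19% (4 of 77), the RA at E11.5 with 3.44% (14 of 407) and the RA at E12.5 with 1.97% (4 of 203). In C57BL/6 it was the RA at E10.5 with 29.7% (27 of 91).

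After birth they were the CD1 LA at P2, with 16.1% (26 of 161) in the experiment of E9.5 to P3 and 9.34% (27 of 289) in that of P2 to P9, the RA at P2 with 6.46% (41 of 635), the LA at P4 with 1.97% (12 of 608), and the C57BL/6 RA at P9 with 1.995% (8 of 401). The 8 cells of the RA at P9 stood apart from all ventricular samples of at least 10 cells, with a median mitochondrial share of 2.94% and a ribosomal-protein share of 34.4%. The 27 cells of the P2 LA in the later experiment had 44784 UMIs at the median, against 17499 in the 26 of the earlier one. The cause was not tested.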

How the results depend on the processing

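Across 58 results, 1005 recomputed values kept direction and side of the threshold in 892 cases, lost a call in 59, gained one in 24 and changed sign in 30. Differences are in points for shares, in log2 for UMIs and in genes otherwise, and the cause of a change was not tested unless stated.

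In trends with stage in C57BL/6, the mitochondrial rho gained a call under the stricter cell filter (0.73), in LV (0.77) or RV samples alone (0.70) and with ventricles pooled (0.85). The ribosomal-protein rho did so in the same settings (-0.83, -0.73, -0.83 and -0.82). The rho of detected genes lost its call without the highest doublet scores (-0.75) and with no UMI range (-0.50). The rho of the share lost its call under the stricter filter (-0.53), without the highest doublet scores (-0.50), with ventricles pooled (-0.50) and without the sub-clusters of few UMIs (-0.58), and turned in LV samples alone (0.37). The UMI rho, never called, turned at a minimum of 20 cells (-0.11), under the stricter filter (-0.25), in LV samples alone (-0.28) and with ventricles pooled (-0.37). In CD1 the UMI rho lost its call in LV samples alone (-0.49) and over all experiments (-0.55), and that of detected genes in the range of 5000 to 10000 UMIs (-0.39).

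LV minus RV differences that were not called changed sign for C57BL/6 UMIs at minimums of 20 (-0.057) and 50 cells (-0.28), under the stricter filter (-0.048) and without the sub-clusters of few UMIs (-0.057), and for CD1 genes under the stricter filter (-3.17) and with no UMI range (-140). The C57BL/6 difference in share was called under the stricter filter (14.5157).

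Against non-myocytes, minimums of 20 and 50 cells leave fewer stages, and calls were lost for that reason. At 20 these were CD1 genes (-321) and, in C57BL/6, UMIs (0.97), mitochondrial (6.23) and ribosomal-protein share (-6.998). At 50 they were, in CD1, UMIs (0.77), genes (-180), mitochondrial (6.65) and ribosomal-protein share (-6.37), and in C57BL/6 UMIs (0.96), mitochondrial (5.003) and ribosomal-protein share (-5.92). The CD1 difference in genes also lost its call against endothelial cells (-279, 3 stages) and at 5000 to 10000 UMIs (-168). With no UMI range it turned to 510.5, and in C57BL/6 to 737. The C57BL/6 difference was called without the highest doublet scores (-232). Against atrial CMs in CD1, the mitochondrial difference lost its call at minimums of 20 (2.54) and 50 cells (3.13), under the stricter filter (1.96) and without the sub-clusters of few UMIs (2.43). Without the highest doublet scores UMIs (-0.12) and genes (-224) were called. The ribosomal-protein difference, never called, turned with means (-0.11), at 50 cells (-0.20) and without the highest doublet scores (-0.028).

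With each stage or well left out in turn, calls were lost as follows. The CD1 UMI rho (-0.88 to -0.72) lost its call without E9.5 or E12.5. The C57BL/6 rho of the share (-0.90 to -0.48) lost it in 10 of 13 settings and that of detected genes (-0.94 to -0.66) in 8 of 11. The CD1 mitochondrial difference from atrial CMs (2.20 to 2.96) lost it without any of its 7 stages, when only 6 were left, and in 2 wells' settings, and its change with stage (0.83 to 1) lost it in 4 of 7. Calls were gained in C57BL/6 for the mitochondrial rho (0.48 to 0.83) without E10.5, the ribosomal-protein rho (-0.81 to -0.57), the LV minus RV ribosomal-protein share (0.85 to 1.63) and the change of the mitochondrial difference from non-myocytes (0.62 to 0.98), in CD1 for the genes against atrial CMs (-243 to -174), their change (-1 to -0.66) and the change of the UMI difference from non-myocytes (0.43 to 0.81), and between strains for UMIs (0.11 to 0.94) and share (0.32 to 1). Sign changes were among results not called: LV minus RV in C57BL/6 UMIs (-0.093 to 0.064) and CD1 genes (-11.2 to 69.9), the C57BL/6 UMI rho (-0.18 to 0.43), and the CD1 ribosomal-protein difference from atrial CMs (-0.24 to 0.19) and its change (-0.20 to 0.49).

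No analysis paired by replicate number was possible because each group is 1 sample, and the replicate number that the groups share joins no samples. The pairs in the sign-flip tests are of the same stage, and against non-myocytes also of the same samples, not of the same replicate number. No ventricular CM was marked for exclusion, so keeping such cells gave no other value. After P0 in CD1 and E18.5 in C57BL/6, too few ventricular CMs were left for a stage value with both ventricles.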
